A study of Mus musculus with 8 samples.

Results

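In myotubes lacking RIP140, some regions that gained acetylation of lysine 27 on histone H3 (H3K27ac) lay beside regions that lost it, and these mixed loci are described here. A region was a member when its centre lay within 20 kb of the centre of a region that changed in the opposite direction, so the members were selected on their position and on the authors' call of direction, and neither of these is a result. Of 11180 differential regions, 474 were members, which is 4.24% (95% Wilson interval 3.88 to 4.63%). They comprised 231 of 3917 increased regions (5.90%) and 243 of 7263 decreased regions (3.35%), and they formed 219 loci when members linked by opposite pairs were joined.

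The libraries came from primary mouse myotubes, the fused muscle cells that satellite cells of gastrocnemius form in culture. The labels give 8 libraries in 4 groups of 2, namely Nrip1KO and Ctrl myotubes, each with an H3K27Ac antibody and with IgG. Per the methods of the study, the knockout allele was a floxed Nrip1 on C57BL/6J recombined by Cre under the muscle creatine kinase (MCK) promoter, which is active in striated muscle, and Cre-negative littermates served as controls. Cells of both genotypes were expanded in medium with EGF, insulin and dexamethasone, kept for 4 days in low-glucose medium with horse serum, and their nuclei were pooled before being divided between antibodies. How far MCK-Cre had recombined Nrip1 in these cultured myotubes, and how many animals were pooled, are not given in the sources used here. The labels and the methods name H3K27ac antibodies of different suppliers.

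The deposited lists hold positions called as changed by at least 2-fold, 1 list per direction, without values for single libraries. How large each change was, how replicates varied, the depth, the IgG background and the level of any cell type marker are therefore unknown here, and no count of reads stands behind any region named below. Each p-value below describes sequence or annotation over loci or regions of these lists and not variation between cultures.

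H3K27ac is laid down by the acetyltransferases p300 and CBP at active enhancers and promoters, and it is removed by histone deacetylases. RIP140, the protein encoded by Nrip1, is a coregulator that nuclear receptors recruit and that binds deacetylases, and it is best known as a repressor of oxidative and lipid genes in muscle and fat. A muscle gene is often served by several enhancers and by alternative promoters, each of which can carry the mark independently of its neighbours.

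The shortest gap between a gained and a lost region lay on chromosome X at a microRNA cluster. The decreased region, chrX:53053201-53054565, covered the hairpins of Mir351, Mir503 and Mir322, which all lie on the minus strand. The increased region, chrX:53054644-53056549, began 78 bp after it and overlapped C430049B03Rik, a non-coding transcript on the same strand that starts upstream of the hairpins. How peaks of the 2 genotypes were combined before they were compared is not given in the sources used here, so whether regions this close are separate elements cannot be told from the lists, at this locus or at the other short gaps. The miR-322 and miR-503 microRNAs are known to be induced when myoblasts leave the cell cycle. Their mature sequences from RefSeq (GRCm38.p6) are shown with the seed, bases 2 to 8, in capitals, because the 3 microRNAs under the lost mark fall into separate seed groups.

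mmu-miR-322-5p: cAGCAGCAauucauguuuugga
mmu-miR-503-5p: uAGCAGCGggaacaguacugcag
mmu-miR-351-5p: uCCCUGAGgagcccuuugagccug

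The seeds of miR-322-5p and miR-503-5p differed in their last base, and the seed of miR-351-5p was unrelated to both. The other microRNA hairpins of the cluster, Mir542, Mir450-1, Mir450-2 and Mir450b, lay between 3713 and 5122 bp from the decreased region and were overlapped by neither region.

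Sequences of 5 loci are shown next as 200-base windows from the central 500 bp of a region, on the plus strand of GRCm38.p6, to let gained and lost DNA be compared within a locus. The windows were moved to hold most motif matches, and matches on either strand are in capitals. The Mir322 locus had the shortest gap, Tcf7l1 came from a list of Wnt genes and Insr from a list of insulin genes, and Lmo7 and Pdlim1 were chosen for display after their matches were seen. The motifs searched were the E-box CAGCTG bound by myogenic regulators, AP-1 (TGACTCA), TEAD (ACATTCC or GCATTCC), RUNX (TGTGGT) and the AT-rich MEF2 consensus. Over all 11179 regions on assembled chromosomes, the central 500 bp held an E-box in 34.7%, AP-1 in 14.1%, TEAD in 15.2%, RUNX in 35.8% and MEF2 in 7.72%.

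Mir322 decreased, chrX:53053783-53053982: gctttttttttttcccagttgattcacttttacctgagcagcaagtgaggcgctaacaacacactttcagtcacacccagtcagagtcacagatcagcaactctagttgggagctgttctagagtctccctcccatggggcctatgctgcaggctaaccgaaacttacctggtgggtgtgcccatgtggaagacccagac
Mir322 increased, chrX:53055347-53055546: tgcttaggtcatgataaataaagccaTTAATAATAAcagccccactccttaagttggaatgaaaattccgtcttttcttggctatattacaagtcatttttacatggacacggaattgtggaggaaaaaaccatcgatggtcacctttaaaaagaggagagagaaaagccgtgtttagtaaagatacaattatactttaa
Tcf7l1 decreased, chr6:72676916-72677115: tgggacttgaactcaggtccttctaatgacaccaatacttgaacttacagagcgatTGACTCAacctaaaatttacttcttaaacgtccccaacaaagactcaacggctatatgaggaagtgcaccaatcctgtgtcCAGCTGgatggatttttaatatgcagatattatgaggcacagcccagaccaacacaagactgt
Tcf7l1 increased, chr6:72673968-72674167: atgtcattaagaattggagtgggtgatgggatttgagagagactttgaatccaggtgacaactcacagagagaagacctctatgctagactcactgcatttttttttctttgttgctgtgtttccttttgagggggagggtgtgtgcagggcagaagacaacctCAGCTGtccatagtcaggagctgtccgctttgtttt
Insr decreased, chr8:3239698-3239897: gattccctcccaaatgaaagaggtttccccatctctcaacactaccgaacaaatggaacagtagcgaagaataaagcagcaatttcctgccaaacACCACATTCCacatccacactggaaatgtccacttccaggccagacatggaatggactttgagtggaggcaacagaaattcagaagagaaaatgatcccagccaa
Insr increased, chr8:3246505-3246704: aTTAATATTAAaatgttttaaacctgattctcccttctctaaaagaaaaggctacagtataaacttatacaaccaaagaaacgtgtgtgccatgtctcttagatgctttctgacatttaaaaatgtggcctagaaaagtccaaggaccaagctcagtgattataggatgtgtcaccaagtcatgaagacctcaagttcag
Lmo7 decreased, chr14:101829759-101829958: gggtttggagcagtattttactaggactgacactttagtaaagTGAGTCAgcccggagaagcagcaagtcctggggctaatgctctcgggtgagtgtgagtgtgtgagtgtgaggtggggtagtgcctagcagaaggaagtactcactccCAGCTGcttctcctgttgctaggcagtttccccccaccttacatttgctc
Lmo7 increased, chr14:101839320-101839519: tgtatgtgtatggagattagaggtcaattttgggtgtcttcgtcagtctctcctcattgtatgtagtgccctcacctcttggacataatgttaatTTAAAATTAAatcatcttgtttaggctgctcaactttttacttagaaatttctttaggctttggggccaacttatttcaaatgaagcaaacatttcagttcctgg
Pdlim1 decreased, chr19:40246579-40246778: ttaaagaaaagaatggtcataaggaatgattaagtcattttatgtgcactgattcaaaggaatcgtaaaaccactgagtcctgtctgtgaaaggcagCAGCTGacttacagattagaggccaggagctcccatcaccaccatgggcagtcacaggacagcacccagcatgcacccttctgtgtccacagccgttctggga
Pdlim1 increased, chr19:40255493-40255692: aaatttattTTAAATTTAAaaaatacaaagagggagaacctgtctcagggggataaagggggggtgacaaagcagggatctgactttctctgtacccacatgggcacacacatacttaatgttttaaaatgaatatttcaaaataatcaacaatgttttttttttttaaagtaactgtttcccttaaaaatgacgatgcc

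In 4 of these loci, Mir322, Insr, Lmo7 and Pdlim1, the capitals in the increased window mark a MEF2 match, and the decreased window held none. The loci shown are not representative in this respect. Over all 219 loci, MEF2 was more frequent on the increased side in 24 and on the decreased side in 8. The increased windows of the list genes Ncoa3 and Plk2, which are not shown, held no MEF2 match. The Mir322 increased window had a GC content of 34.5% and the decreased window 50.5%. The decreased window of Insr carried a RUNX and a TEAD match that overlap, and the decreased windows of Lmo7 and Tcf7l1 each carried an AP-1 match and an E-box. A match is a description of the letters and not evidence of binding.

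Gained and lost regions stood closer to balance in the mixed loci than elsewhere, which the choice of members largely fixes. Of the members, 48.7% were increased, beside 35.0% of all differential regions and 29.6% of the 4545 regions with any differential neighbour within 20 kb. Members made up 10.4% of those 4545 regions. The other 4071 had neighbours of their own direction only, 1114 increased and 2957 decreased. In 190 of the 219 loci there was 1 increased and 1 decreased region, 24 loci held 3 regions, 3 held 4 and 2 held 5.

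The centres of the closest opposite pair lay between 747 and 19920 bp apart, with a median of 9946 bp. In 15 loci they were within 2 kb, in 51 within 5 kb and in 110 within 10 kb. Gaps between the facing edges had a median of 9130 bp, and 14 were under 1 kb. Regions were short: increased members had a median width of 672 bp and decreased members of 763 bp, and the shortest width, 501 bp, was held by 33.3% and 25.5% of them. Among regions with neighbours of their own direction only, 21.4% of increased and 15.5% of decreased regions had that width.

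**Figure D1:**
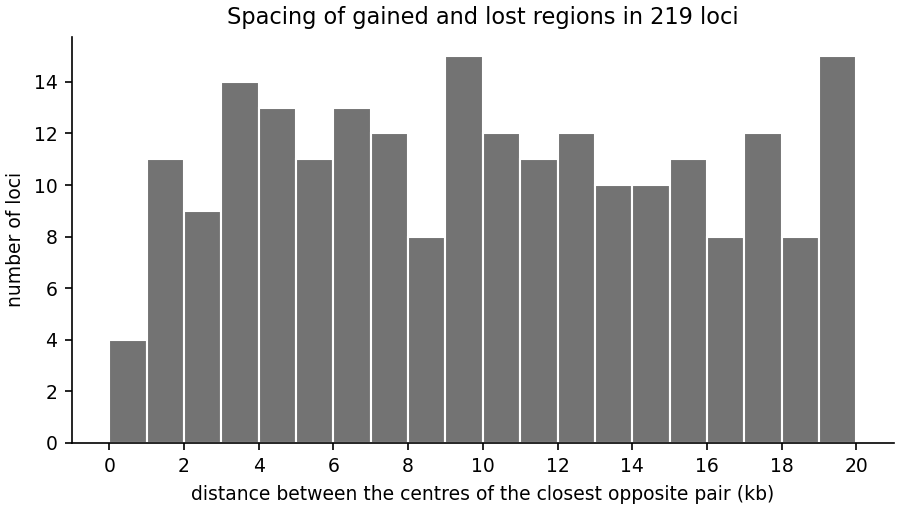
Number of loci (vertical axis) by the distance in kb between the centres of the closest increased and decreased region (horizontal axis, bins of 1 kb), over 219 loci. The distances fill the whole range up to the limit of 20 kb, with a median of 9946 bp.

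Of the 29 loci with more than 2 regions, 9 had an increased region between decreased ones, 5 had a decreased region between increased ones, and 15 switched direction once along the chromosome. The largest were at Adcy7 and Nectin3, with 5 regions each. At Adcy7, which encodes an adenylyl cyclase (chromosome 8), 3 decreased regions of 501 bp lay 4234, 2386 and 1186 bp from the nearest annotated start and outside the gene. The increased region followed after a gap of 1385 bp, inside the gene, 830 bp from a start and 762 bp wide. A decreased region of 5172 bp lay farther into the gene, 930 bp from another start. Its name in the deposited list ends in 3, read here as the number of peaks joined into it. At Nectin3, a cell adhesion gene on chromosome 16, the increased region lay beyond the 3′ end of the gene, 26152.5 bp from the nearest start. Its 4 decreased neighbours ran from the 3′ UTR into the introns, with widths of 1720, 2415, 501 and 1381 bp.

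Loci with 4 regions stood near Mir34a and Gpr157, near Errfi1 and in Fam53b. In the first, on chromosome 4, decreased regions of 2892 and 2145 bp flanked Mir34a, a microRNA induced by p53, without covering its hairpin, which lay 522 bp from the nearer of them. The increased region of 675 bp followed at 4205 bp, and a further decreased region lay in an intron of Gpr157. Near Errfi1, which encodes a feedback inhibitor of the EGF receptor, a single increased region of 632 bp sat 77362 bp from the gene's nearest start with a decreased region on one side and 2 on the other. In Fam53b on chromosome 7 the pattern was the opposite, with 3 increased intronic regions around a decreased one of 1437 bp.

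Loci with 3 regions were named here in order of their shortest gap. In Arhgef26, a gene for a guanine nucleotide exchange factor of small GTPases, 2 increased intronic regions preceded a decreased one with a gap of 226 bp. At Pcdh1, a protocadherin gene, the shortest gap was 299 bp, and all 3 regions were intergenic. At G3bp2, which encodes a stress granule protein, the gap was 1019 bp. At Lif, a cytokine of the IL-6 family released by muscle, the increased region covered a start, with its centre 118.5 bp away, and 2 decreased regions lay in an intron at 3043 and 3120 bp from the nearest start. The nearest protein-coding gene of another such locus was Bcl6, a transcriptional repressor, at 92945 to 114280.5 bp.

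**Figure D2:**
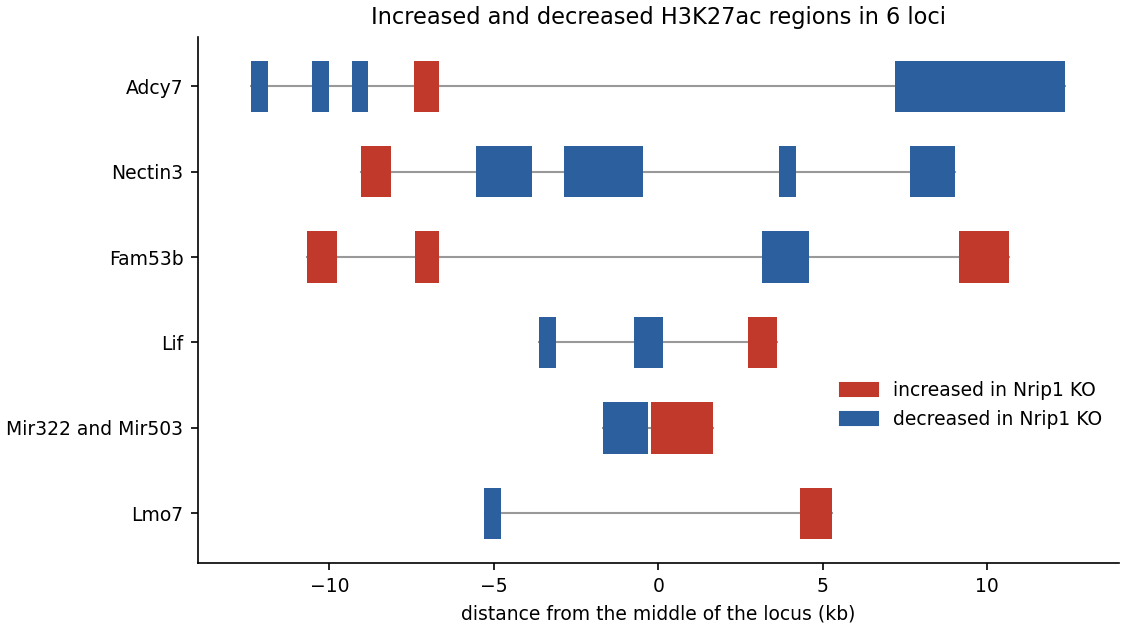
Regions that were increased (red) or decreased (blue) in Nrip1 KO myotubes in 6 loci (vertical axis), drawn to scale by distance in kb from the middle of the locus (horizontal axis, plus strand left to right). Adcy7 and Nectin3 hold 5 regions each, and the gap at Mir322 and Mir503 is 78 bp.

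Besides the microRNA cluster, the shortest gaps included those at Polr2g (193 bp), Arhgef26 (226 bp) and Cd200r3 (246 bp). Polr2g encodes a subunit of RNA polymerase II, and its decreased region was centred 19.5 bp from an annotated start. Its increased region, also inside the gene, was centred 857.5 bp from its nearest start, and the centres were 959 bp apart. Near Cd200r3 both regions were intergenic and 501 bp wide, and repeats made up 71.1% of the decreased region and none of the increased one.

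In 7 loci an increased and a decreased region were each within 1 kb of a start of the same gene, and these genes were Adcy7, G3bp2, Polr2g, Ccnf, Safb2, Ankrd12 and Lmo7. At Ccnf, which encodes cyclin F, the decreased region was centred 33 bp from a start and had a GC content of 66.7%, while the increased region, 251 bp away inside the gene, had 45.5%. At Ankrd12 the increased region was centred 713.5 bp from its nearest annotated start, within the gene, and the decreased one 722 bp from its own nearest start, outside the gene, with the centres 2060 bp apart. At Lmo7, which encodes a LIM domain protein linked to the nuclear envelope, the pair lay at separate annotated starts, 9828 bp apart. At Safb2, a nuclear matrix protein gene, the centres were 5636 bp apart, the increased one 105 bp and the decreased one 261 bp from a start. In all, 25 loci had only the increased side within 1 kb of a start, 18 only the decreased side, 9 both and 167 neither.

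The widest increased member was intronic in Pdlim1, a PDZ and LIM domain protein of the actin cytoskeleton, at 4654 bp. It was followed by Arpp21, a cAMP-regulated phosphoprotein gene, at 3454 bp, and by an intergenic region near Lmod3, which nucleates actin in muscle thin filaments, at 2783 bp. Among the widest decreased members were the region of 5172 bp at Adcy7 and a region of 4251 bp in Retreg1, a receptor of endoplasmic reticulum turnover. By the same reading of names, both of these decreased members and 2 of the 3 increased ones were joined from more than 1 peak. The exception was Arpp21.

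Both regions of the closest pair shared their nearest gene in 170 of 219 loci (77.6%) and their nearest protein-coding gene in 202 (92.2%). In 116 loci (53.0%) they lay in 1 gene body, and in 84 both were intronic, whereas in 53 both were intergenic. These counts gave 172 genes that were nearest to both directions within a locus, of which 95 were protein-coding, out of 7496 genes nearest to any differential region (2.29%). With protein-coding genes alone, 200 of 5560 genes were so placed (3.60%). The nearest start does not show which gene a region acts on.

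Among 13 gene lists, 3 genes were nearest to both directions within a locus. Ncoa3, a coactivator of nuclear receptors, had an increased region of 907 bp and a decreased one of 1364 bp in introns, 8544 and 18936 bp from the nearest start. Tcf7l1, a transcription factor of the Wnt pathway, had an increased region of 501 bp and a decreased one of 1445 bp in introns, 2070 bp apart. Plk2, a polo-like kinase induced by stress, had a decreased region 20029 bp and an increased one 37932.5 bp from the nearest of its starts. When protein-coding genes alone were named, 12 list genes were added, namely Insr, the insulin receptor, Pik3r1, a regulatory subunit of phosphoinositide 3-kinase, Igfbp3, Tnc, Col12a1, Tcf4, Fzd7, Bmp2, Robo2, Sema3a, Sema6a and Runx2. Many of these lay far off: the Runx2 pair was intronic in Supt3 at 159609.5 and 166561.5 bp from the nearest Runx2 start, and the Col12a1 pair lay 454042.5 and 465742.5 bp away.

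No member was nearest to a gene of the lists of sarcomere and contractile genes (8 of 35 genes nearest to any region), myogenic regulators (14 of 32), fatty acid and triglyceride genes (9 of 32), histone deacetylases (7 of 15) or neuromuscular junction and neurotrophic genes (14 of 29). By nearest start among all genes, the same was true of the lists of matrix and fibroblast genes (12 of 36), TGF-beta and BMP genes (17 of 40), AP-1, Runx and TEAD factors (10 of 25), insulin and glucose genes (15 of 33) and guidance molecules (19 of 45). Over all genes, 273 of the 7496 nearest to any region were nearest to a member. With so few list genes in reach of any region, a count of 0 is therefore no result about these lists. Lmod3, named above as nearest to a wide increased member, is not on the sarcomere list. None of Nrip1 and 13 genes that the study named in its H3K27ac analysis was nearest to a member. Within 500 kb of these genes, the least separated regions of opposite direction were 45023 bp apart, near Stat3, and 73746.5 bp apart, near Unc13c. The 13 are not all the genes that the study named. Plk2, nearest to both regions of a locus above, is listed by the study among angiogenic genes with raised expression in RIP140-deficient fast-twitch muscle.

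A further 5 genes were chosen after their values were seen, and no theme was tested for them. At Utrn, which encodes utrophin, the dystrophin relative, a decreased region of 1023 bp lay in the gene 2408 bp from a start, and increased regions of 501 and 920 bp lay outside it at 6988 and 9724 bp. At Sgcb, the gene for beta-sarcoglycan, the decreased region was 874 bp from a start and the increased one 5490 bp. Syne1, which encodes nesprin-1, held both in its introns at 25247.5 bp (decreased) and 9306 bp (increased). Near Camk2d, a calcium/calmodulin-dependent kinase gene, there were 2 separate loci, with increased regions of 2737 and 865 bp and decreased ones of 501 and 2051 bp. At Fkbp5, an immunophilin gene induced by glucocorticoids, the decreased region was centred 154.5 bp from a start and the increased one 2114 bp from a start, in an intron.

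Members were compared with regions that had only neighbours of their own direction within 20 kb, to ask whether mixed loci take other positions in genes. Promoter-proximal regions, with a start within 1 kb of the centre, made up 15.2% of increased members and 15.1% of the comparison regions, and 11.1% and 10.5% of the decreased ones. Introns held 52.4% of increased members against 49.5%, and 48.1% of decreased members against 54.5%. None of the 6 shares by position passed (two-sided Fisher's exact tests, lowest adjusted p = 0.162, adjusted over 8 tests by the Benjamini-Hochberg method). Regions read as joined from more than 1 peak were less common among increased members, at 6.06% (14 of 231) against 13.4% (149 of 1114). The odds ratio was 0.418 (Fisher's exact test, adjusted p = 0.00997). In decreased members they made up 5.35% against 10.0% (exact test, adjusted p = 0.0685). Chromosomes 4, 7, 10 and 16 held 66, 973, 453 and 66 increased regions and 811, 23, 203 and 780 decreased ones. The result in increased regions did not hold without these chromosomes, with an odds ratio of 0.653 (exact test, adjusted p = 0.363). It was also not called against all other increased regions (exact test, odds ratio 0.587, adjusted p = 0.205) or with a limit of 10 kb (0.426, adjusted p = 0.128). The comparison regions were chosen for neighbours of their own direction, so their share of joined peaks is not free of that choice.

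Neighbouring regions of opposite direction were next compared with neighbouring regions of the same direction, all within 20 kb. A transcription start lay between the centres in 88 of 233 opposite pairs (37.8%) and in 723 of 2502 same-direction pairs (28.9%), with an odds ratio of 1.49 (adjusted p = 0.0164 over 3 Fisher's exact tests, two-sided). Opposite pairs were also farther apart, with a median of 10392.5 bp against 7603 bp. Within distance bins the shares were 21.2% against 15.0% under 5 kb, 29.5% against 26.3% from 5 to 10 kb, and 49.2% against 43.8% from 10 to 20 kb, and the unadjusted p-values were 0.235, 0.651 and 0.283. A match to the CTCF consensus, the motif of the insulator protein, lay in the gap of 4.72% of opposite and 5.16% of same-direction pairs (exact test, adjusted p = 0.877), which is 5.42 and 7.62 matches per Mb of gap. The pair shared its nearest gene in 77.3% and 79.6% (exact test, adjusted p = 0.597). The increased region was the upstream one, along the strand of the shared nearest gene, in 94 of 170 loci (55.3%, two-sided exact sign test, p = 0.192).

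Within loci, the lost regions were on average richer in GC than the gained regions. GC content averaged 43.9% ± 5.54 in increased and 46.6% ± 4.82 in decreased regions (SD over 219 loci), a difference of -2.70 ± 5.91 percentage points. It was higher on the decreased side in 164 loci and on the increased side in 55 (two-sided exact sign test, adjusted p = 8.8e-13 over 10 tests). The difference was -3.05 ± 8.48 points in the 51 loci with centres under 5 kb apart, -2.35 ± 4.51 in 59 loci from 5 to 10 kb and -2.73 ± 5.11 in 109 loci from 10 to 20 kb. Regions that had only neighbours of their own direction averaged 48.6% GC when decreased and 44.0% when increased, so the difference is not shown to be particular to mixed loci.

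The ratio of observed to expected CpG went the other way. It averaged 0.246 in increased and 0.191 in decreased regions and was higher on the increased side in 145 of 219 loci (exact sign test, adjusted p = 9.2e-06). The mean difference was 0.0168 ± 0.217 in loci under 5 kb, 0.0583 ± 0.160 from 5 to 10 kb and 0.0726 ± 0.178 from 10 to 20 kb. The decreased side was the higher in 33.3%, 33.9% and 33.9% of these loci, so the mean and the share behaved differently at short distance. Regions that had only neighbours of their own direction averaged 0.214 when increased and 0.182 when decreased. The CpG difference is therefore not shown to be particular to mixed loci either. In the 167 loci with no promoter-proximal region, a subset added after the data were seen, GC content was still higher on the decreased side in 130 and the CpG ratio on the increased side in 109 (exact sign tests, adjusted p = 2.5e-12 and 0.000487). The extremes were promoters. At Nup153, a nuclear pore gene, the decreased region 241.5 bp from a start had 75.5% GC and the increased one in the gene 31.9%. At Tspan2, a tetraspanin gene, the increased region 140 bp from a start had 67.3% GC and the decreased one 48.5%. Repeat-masked share (113 loci higher on the increased side, 105 on the decreased, adjusted p = 0.794), width (88 and 110, adjusted p = 0.226) and distance to the nearest start (107 and 112, adjusted p = 0.874) did not pass the exact sign test.

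**Figure D3:**
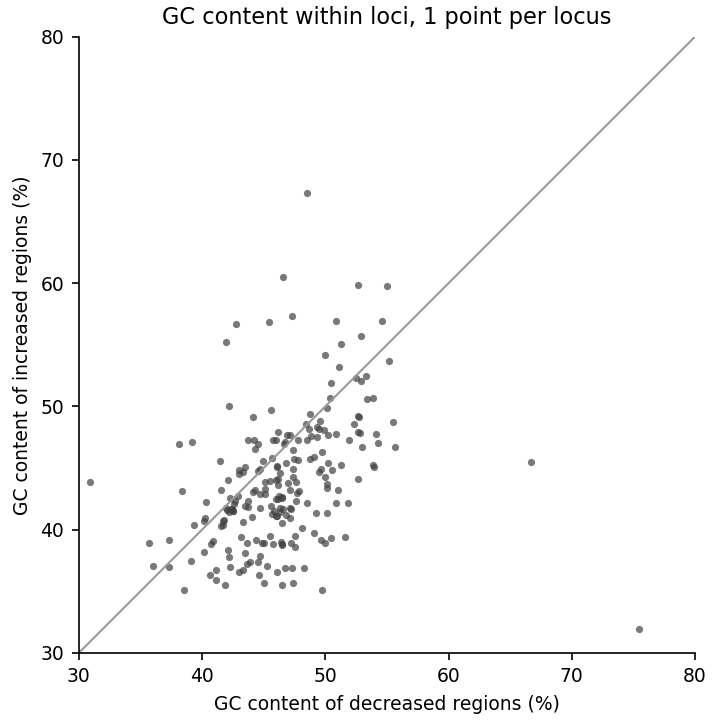
GC content in percent of the increased regions (vertical axis) against that of the decreased regions (horizontal axis), 1 point per locus, with the line of equality. Of 219 points, 164 lie below the line.

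Of the 5 motifs, 2 differed between the sides, MEF2 and RUNX, in opposite directions. A MEF2 match was more frequent on the increased side in 24 loci and on the decreased side in 8 (two-sided exact sign test, adjusted p = 0.0175 over 10 tests), and 184 loci had none on either side. MEF2 factors activate genes of muscle differentiation and are held in check by class IIa deacetylases. Loci of the first kind included Insr, Utrn, Hivep2, Lmo7, Pdlim1, Robo2, Sox11, Arfgap1, Nfe2l3, Otulin, Stard13 and the Mir322 cluster. Loci of the second kind included Lif, G3bp2, Frem2 and Vav3. A RUNX match was more frequent on the decreased side in 66 loci and on the increased side in 36 (exact sign test, adjusted p = 0.0129). For the E-box the counts were 55 on the decreased and 34 on the increased side (exact sign test, adjusted p = 0.0668), for AP-1 22 and 32 (adjusted p = 0.315), and for TEAD 26 and 28 (adjusted p = 0.892).

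Neither call held in a smaller set of loci whose sides differed in GC content by at most 3 percentage points, a subset added after the data were seen. There MEF2 was more frequent on the increased side in 8 and on the decreased side in 5 loci (exact sign test, adjusted p = 0.748), and RUNX on the decreased side in 28 and on the increased side in 15 (adjusted p = 0.22). For RUNX the increased side was the higher in 34.9% of differing loci there, beside 35.3% over all loci. Both calls of the exact sign test were also lost without chromosomes 4, 7, 10 and 16 (MEF2 18 against 8 loci, adjusted p = 0.151, and RUNX 45 against 28, adjusted p = 0.151) and when motifs were searched over the whole width (adjusted p = 0.124 for each). A MEF2 match was held by 11.7% of increased and 4.53% of decreased members, beside 12.2% and 5.30% of all increased and all decreased regions. For RUNX the shares were 27.7% and 39.5% beside 34.2% and 36.6%. In regions that had only neighbours of their own direction, the shares were 11.7% and 4.87% for MEF2 and 33.2% and 36.2% for RUNX. The MEF2 difference is therefore not shown to be particular to mixed loci. Whether the wider RUNX difference is particular to them was not tested.

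**Figure D4:**
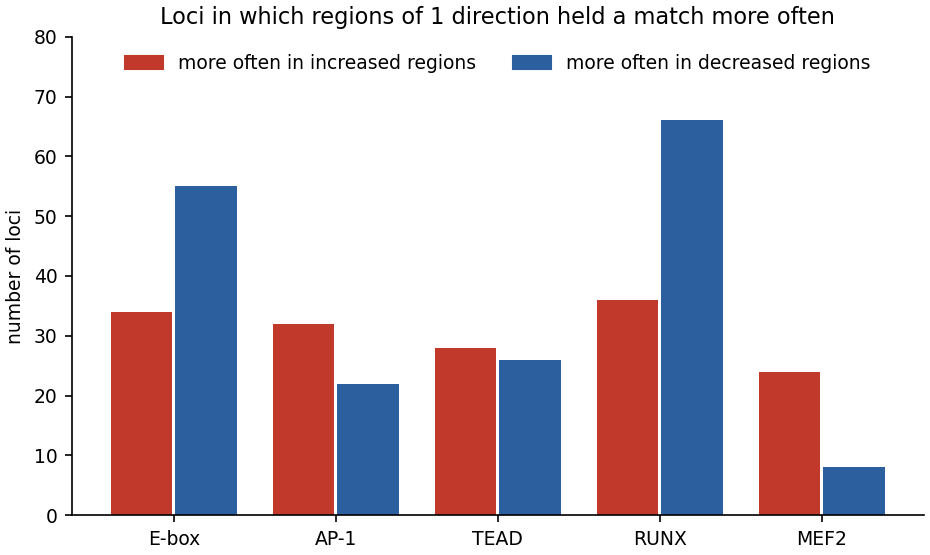
Number of loci (vertical axis, from 0) in which a match to each motif (horizontal axis) was more frequent among the increased (red) or decreased (blue) regions of the locus. MEF2 stands at 24 and 8 loci and RUNX at 36 and 66.

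Members occurred on 20 chromosomes. Chromosome 13 held the most, 36 members in 16 loci, and chromosomes 3 and 16 held 33 each. Loci were densest on chromosome 18, with 15.4 per 100 Mb, and sparsest on chromosome 14, with 1.60. The share of members in each direction depends on how many regions of the other direction a chromosome holds, so the next shares are descriptions of the rule. On chromosome 16, with 780 decreased and 66 increased regions, 21.2% of the increased regions were members, and on chromosome 4, with 811 and 66, 19.7%. On chromosome 7, with 973 increased and 23 decreased regions, 4 decreased regions were members (17.4%) against 0.719% of the increased ones. Around the loci, 72 had no other differential region within 100 kb, 93 had only decreased ones, 37 only increased ones and 17 both.

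**Figure D5:**
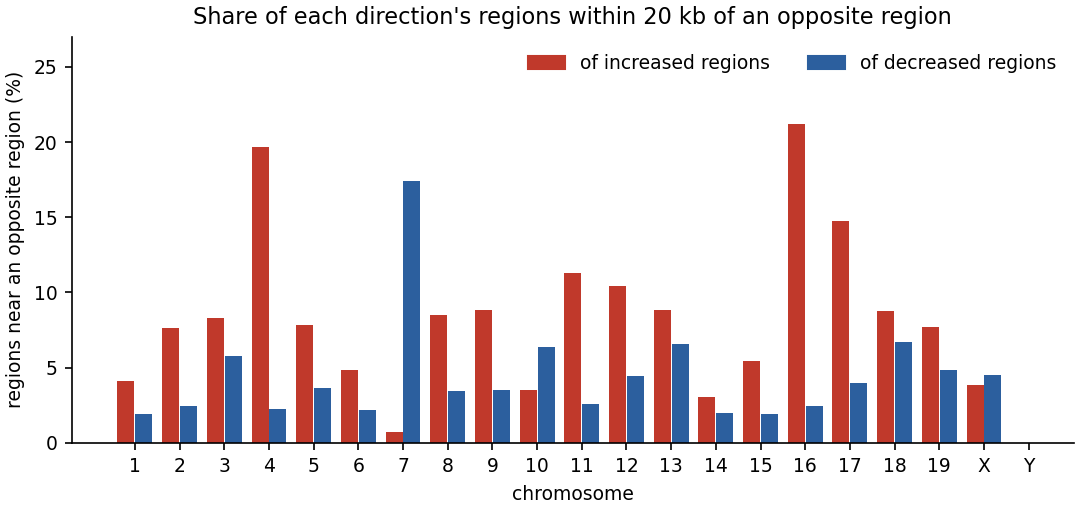
Share in percent of the increased (red) and decreased (blue) regions of each chromosome (horizontal axis) that lay within 20 kb of a region of opposite direction. The highest shares are 21.2% and 19.7% of increased regions on chromosomes 16 and 4 and 17.4% of decreased regions on chromosome 7.

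Distances continued across the limit of 20 kb. Just inside it, the pair near 1700083H02Rik on chromosome 12 was 19834.5 bp apart and the pair near Uggt1 and Gm33280 on chromosome 1 was 19920 bp apart. Just outside it, regions near Hypk and Ell3 on chromosome 2 were 20011.5 bp apart and regions near Spop and Slc35b1 on chromosome 11 were 20148.5 bp apart.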

How the data were processed

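H3K27ac and IgG CUT&RUN libraries of Nrip1KO and Ctrl myotubes were compared by the authors. They aligned reads to mm10 with BWA-MEM2 (BWA 2.2.1 and HOMER 4.11 in the submitters' processing notes), called broad peaks with HOMER and deposited regions that differed at least 2-fold as intervals with a constant score, which was not used. How replicates and IgG entered the calls is not given in the sources used here.

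Positions are counted from 1. All regions but 1 on an unplaced sequence fitted GRCm38.p6. Genes were taken from GENCODE M21 (nearest transcript start to the region's centre), and sequence features from the GRCm38.p6 genome with Python 3.11.15, SciPy 1.17.1 and pysam 0.24.0. Opposite regions with centres within 20 kb were linked into loci. The number of peaks joined into a region was read from the last number of its name. The sources used here do not state what that number counts. Composition covered the whole region and motifs, as consensus matches on both strands, the central 500 bp; a weighted motif would find more sites. Several regions of 1 direction in a locus were averaged, and sides were compared with two-sided exact sign tests over loci and shares with two-sided Fisher's exact tests, each family with Benjamini-Hochberg adjustment and a threshold of 0.05. Loci on 1 chromosome may not be independent. Scripts were tested on simulated data.

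The members, lists and tests were chosen with earlier results of these data known. The text names genes of the 10 loci with most regions (ties by the shortest gap), the 5 shortest gaps, loci with both directions within 1 kb of a start of 1 gene, the 3 widest members per direction, list genes nearest to both directions, Nrip1 and 13 genes of the study, and 2 pairs on each side of the limit; others are named as chosen later. Not all list genes are named, and a few results that these rules would name are not reported here.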

Additional observations from a re-analysis of the deposited data

How the results depend on the processing

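No paired analysis was possible because the deposited lists hold no value per library, and for the same reason no replicate could be left out. Of 223 values recomputed under 16 alternatives, 166 kept their direction and side of the threshold (counts within 1.5 times), among them all those under autosomes alone, the closest pair of each locus, the central 500 bp for composition and a promoter distance of 2.5 kb. The higher GC content of decreased regions lost its call with regions of at least 1 kb, where 34 members in 17 loci were left. Where a call or direction changed, the cause was not tested, also where fewer loci or regions were left. Values for sides are the percent of differing loci in which the increased side was higher, and those for shares are odds ratios.

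With a limit of 10 kb there were 227 members in 110 loci, and 84.5% of closest pairs shared a gene. The values were 69.2% for MEF2 and 34.7% for RUNX, both no longer called, and 43.5% for TEAD. The odds ratios were 1.35 for a start between the centres (no longer called) and 0.933 for increased members in introns. They were 0.426 for joined increased members (no longer called) and 0.15 for joined decreased members (now called). With a limit of 50 kb there were 1131 members in 450 loci, 58.9% shared a gene, and width (42.2%), the E-box (41.3%) and joined decreased members (0.55) were called. The promoter odds ratios were then 0.863 for increased and 0.830 for decreased members, 1.04 for increased intergenic and 1.01 for decreased intronic ones. The E-box was also called by edge gap (37.6%) and in loci of 1 region per side (36.1%).

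Without chromosomes 4, 7, 10 and 16 the values were 69.2% for MEF2, 38.4% for RUNX, 48.8% for TEAD and 0.653 for joined increased members. Of these, MEF2, RUNX and joined increased members were no longer called. With regions of at least 1 kb no test passed the threshold. The values were 29.4% for GC content, 58.8% for the CpG ratio and for start distance, and 47.1% for repeats. For motifs they were 75% for MEF2 (3 loci against 1), 30% for RUNX and 40% for TEAD. The odds ratios were then 0.681 and 0.545 for promoters (increased and decreased), 0.856 and 1.57 for joined peaks, 1.32 for decreased introns, 2.60 for a start between centres and 1.81 for CTCF. Over the whole width, MEF2 was at 65.3% and RUNX at 40.5%, both no longer called, and TEAD at 47.1%. In loci matched within 3 points of GC content (added after the data were seen) MEF2 was at 61.5% and RUNX at 34.9%, both no longer called, and repeats at 42.2%. In loci without promoters (also added) start distance was at 50.9%.

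Against all other regions of a direction, the odds ratios were 0.999 and 0.988 for promoters and 0.587 for joined increased members (no longer called). With promoters set at 0.1 kb, they were 0.758 for increased promoters and 0.708 for decreased introns (now called). With protein-coding genes alone, they were 1.45 for a start between centres (no longer called) and 1.16 for a shared nearest gene, and 92.2% of closest pairs shared one.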
